A study of Mus musculus and Canis lupus familiaris and Equus caballus with 9 samples.

Results

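Voltage-gated sodium channels are the subject here: 9 mouse genes taken as a fixed list of names, out of 21887 protein-coding genes on the nuclear chromosomes of the annotation, were located against the peaks of the repressor NRSF (also called REST). They were Scn1a, Scn2a, Scn3a and Scn8a, the α subunits of central neurons, Scn9a, Scn10a and Scn11a, the α subunits of peripheral sensory neurons, Scn4a, the α subunit of skeletal muscle, and Scn3b, which encodes the auxiliary β3 subunit. The series profiled NRSF by ChIP-seq in cell lines of 3 species in 9 samples. Only the mouse arm bears on these genes: 2 NRSF immunoprecipitates and 1 input DNA from untreated RAW264.7 cells, a macrophage line of BALB/c origin, at passages 13 to 15. The labels tie 1 list of 2357 peaks to both immunoprecipitates, so there is no value per replicate, no error from replicates and no test of a difference between genes. The list gives positions alone, so the depth of the libraries is unknown, and the macrophage label could not be checked against marker genes, since no expression was measured.

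Sodium channels open when the membrane depolarises and carry the inward current of the rising phase of the action potential. A single large α subunit forms the pore, and small β subunits modify its gating and its place in the membrane. NRSF binds a bipartite DNA element, known as RE1 or NRSE, and recruits corepressors. The rat gene of the Scn2a channel was among the genes in which that element was first described, as a silencer active outside neurons.

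Of the 9 sodium channel genes, 4 had a peak with its midpoint inside the annotated span or within 10 kb of either end (44.4%), against 7.49% of all protein-coding genes (1640 of 21887). The 4 were Scn2a, Scn8a, Scn10a and Scn3b, with 5 distinct peaks among them, because Scn10a had 2. Sodium channel genes are long, with spans of 22.4 to 176 kb, and a long gene has more room for a peak. Among the 9049 protein-coding genes whose span was 20 to 200 kb, the share with a peak was 8.70%. The median span of that class was below that of the sodium channel genes, so the class does not account for their length. Among the 990 protein-coding genes over 200 kb, which are longer than any of the 9, the share was 24.9%. No set of genes matched to the 9 in span was counted. The list of sodium channel genes was drawn up with results of these data known, so its share is a description and was not tested.

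Scn2a encodes Nav1.2, which carries the action potential in excitatory neurons of the brain and is placed in the axon initial segment and unmyelinated axons. Its peak lay at chr2:65619775-65620175 (mm10), outside the gene, with the midpoint 789 bp below the lower end of the span at 65620764 to 65767447. The lower end is where transcription starts: the first start site of Scn2a in the RefSeq promoter table was at 65620769 on the plus strand, and the peak midpoint lay 794 bp upstream of it. The second start site, at 65668686, lay 48.7 kb beyond the peak. Scn2a was the only 1 of the 7 members with a start site in that table whose start site had a peak within 1 kb, as 1.35% of the 17492 protein-coding genes in that table had.

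Scn8a encodes Nav1.6, the channel of mature initial segments and nodes of Ranvier. Its peak lay at chr15:100873105-100873505, inside the gene and 3442 bp above the lower end of a span of 176 kb, the longest of the 9. Relative to the annotated start sites, both on the plus strand, the midpoint was 2660 bp downstream of the first and 63.0 kb upstream of the second. The peaks of Scn2a and Scn8a thus lay on opposite sides of the first start site of their genes.

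Scn3b encodes β3, a β subunit found in embryonic and adult brain that binds the α subunit without a covalent bond. Its peak lay at chr9:40269555-40269955, inside the gene and 539 bp above the lower end of a span of 22.4 kb, the shortest of the 9. Scn2a and Scn3b were the 2 members of 9 with a peak midpoint within 1 kb of an annotated end, compared with 1.58% of all protein-coding genes.

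Scn10a encodes Nav1.8, the tetrodotoxin-resistant channel of nociceptive neurons. It had peaks at chr9:119664115-119664515 and chr9:119706710-119707110, with midpoints 42.6 kb apart. The gene is read from the minus strand, and the peaks lay 54.7 kb and 12.1 kb downstream of its start site, the first close to the middle of the span and the second toward its 5′ end. Both peaks of Scn10a were therefore further from a gene end than those of the other 3 genes. Having 2 or more peaks in reach was a property of 1.01% of all protein-coding genes.

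**Figure D1:**
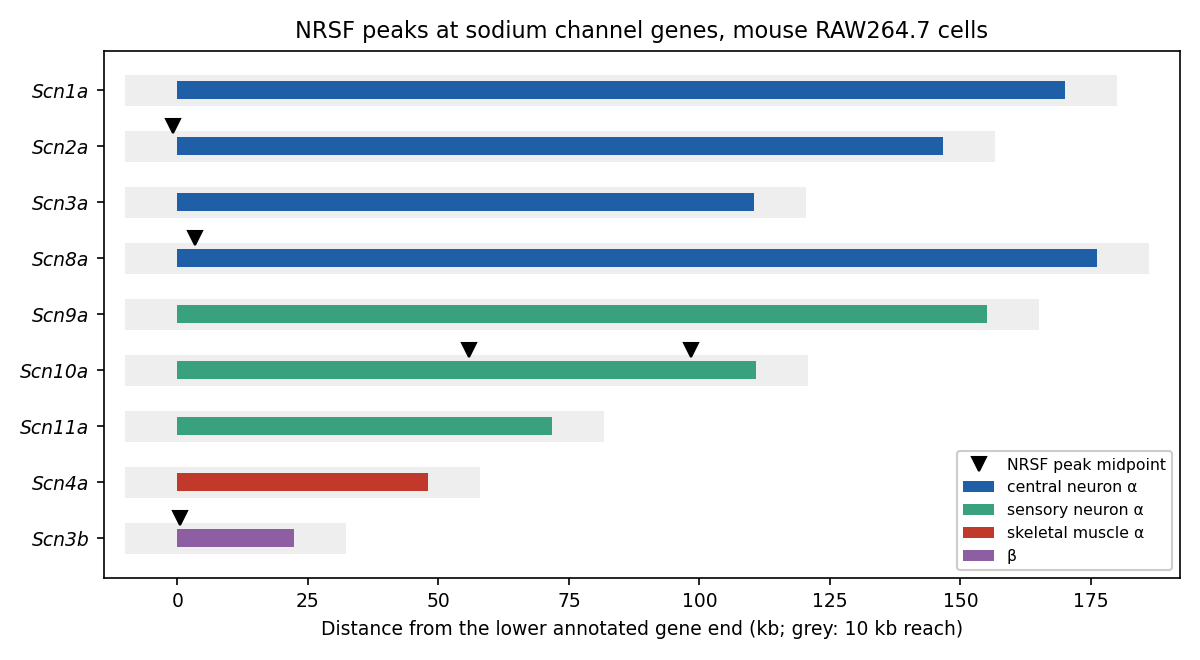
Spans of the 9 sodium channel genes (bars, coloured by class) drawn from the lower annotated end, in kb, with the midpoints of NRSF peaks in mouse RAW264.7 cells (triangles) and the reach of 10 kb (grey). Triangles stand at the lower end of Scn2a, Scn8a and Scn3b and inside Scn10a, and the other 5 genes have none.

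For each of the 5 peaks the sodium channel gene had the closest annotated end of any gene, and no other annotated span held the peak. The nearest end of another gene was 23.5 kb from the Scn3b peak, in Gramd1b, and 31.8 to 79.9 kb from the other 4 peaks, in long noncoding RNA genes. Over the whole list, the median distance from a peak to the nearest other peak was 177 kb, with the middle 50% of peaks between 44.1 and 556 kb. The peak at Scn2a had its neighbours 2434 kb below and 4940 kb above it. For Scn3b these distances were 1330 and 604 kb, and for Scn8a they were 404 and 273 kb. The peaks of Scn10a, in contrast, were each other's nearest neighbours, at 42.6 kb.

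The remaining 5 members had no peak in reach. Scn11a, the gene of Nav1.9 in nociceptors, and Scn3a, the gene of the mainly embryonic channel Nav1.3, came nearest, with the closest peak 46.9 and 52.4 kb from the gene. In each case that peak was the one already counted for the neighbour, Scn10a or Scn2a. Scn4a, the gene of Nav1.4 in skeletal muscle, had its closest peak 310 kb away, at chr11:106007785-106008185. Scn1a, the gene of Nav1.1 in inhibitory interneurons, and Scn9a, the gene of Nav1.7 in sensory and sympathetic neurons, had theirs 651 and 860 kb away. Genes just inside and just outside the reach were thus well apart: the furthest member counted, Scn2a, lay 789 bp from its peak, and the nearest not counted, Scn11a, lay 46853 bp away.

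Over the 9 members, the median distance from the closer gene end to the closest peak midpoint was 46.9 kb, compared with 299 kb over all protein-coding genes, whose middle 50% ran from 98.8 to 773 kb. Of all protein-coding genes, 1.02% had an end at least as close to a peak as Scn3b, 1.32% as Scn2a, 3.15% as Scn8a and 6.42% as Scn10a. At the other end of the order, 50.9% were at least as close as Scn4a, 70.7% as Scn1a and 77.4% as Scn9a. The family thus ran from genes with a peak at one end to genes further from any peak than most genes.

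**Figure D2:**
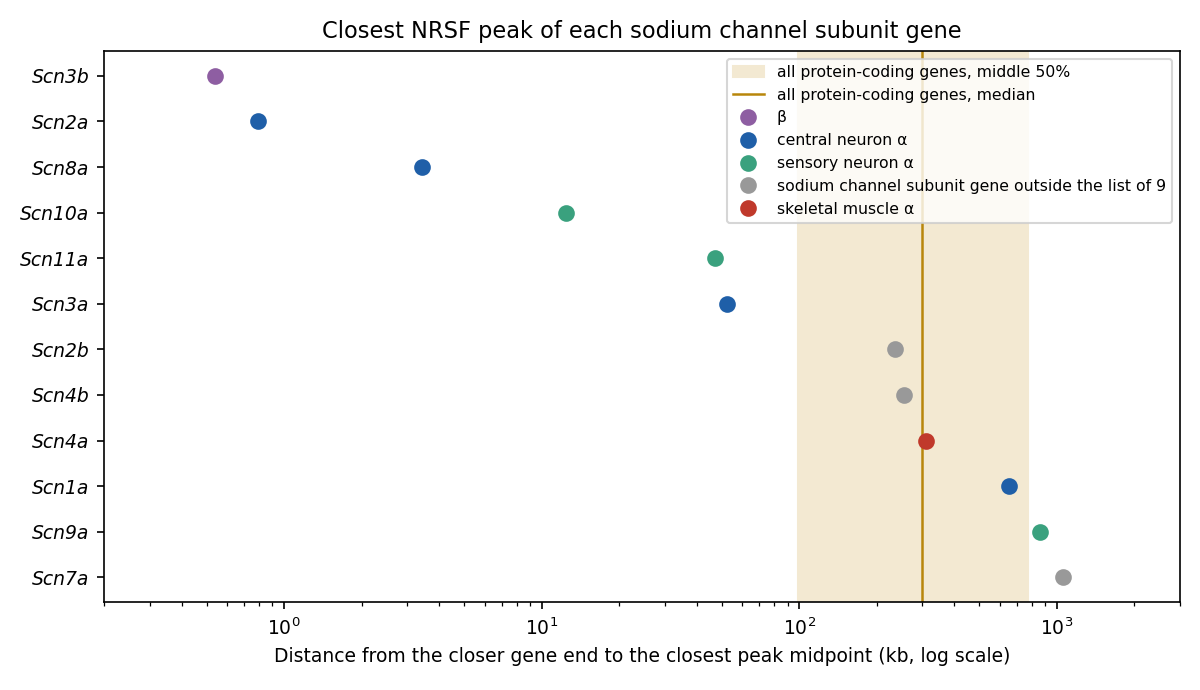
Distance in kb, on a log axis, from the closer annotated end of each of the 12 sodium channel subunit genes examined to the closest NRSF peak midpoint, with the median and the middle 50% of all protein-coding genes. Scn3b, Scn2a, Scn8a and Scn10a lie between 0.539 and 12.4 kb, and Scn4a lies beside the median of 299 kb.

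Between classes, peaks stood at 2 of the 4 α subunit genes of central neurons, at 1 of the 3 of sensory neurons but not at the 1 of skeletal muscle, Scn4a. The muscle side rests on a single gene, so no error can be given for it and the difference was not tested. Scn4a, at 48.0 kb, also had the shortest span of the α subunit genes examined. The median span was 158 kb for the central neuron genes and 111 kb for the sensory neuron genes. Class and room for a peak therefore cannot be told apart here. The central neuron genes Scn1a and Scn3a and the sensory neuron genes Scn9a and Scn11a were likewise without a peak in reach, so lack of a peak was not a property of the muscle gene alone. Of all protein-coding genes 7.49% had a peak in reach, so a gene without one was the common case. No peak lay in reach of 3 further family members outside the list, which are Scn7a, a sodium-sensing channel of glia, and the β subunit genes Scn2b and Scn4b. The closest peaks of Scn2b and Scn4b were 235 and 256 kb away, and that of Scn7a was 1053 kb away. Of the 12 sodium channel subunit genes examined 4 had a peak (33.3%, beside the same 7.49%), or 3 of the 9 α and 1 of the 3 β subunit genes.

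Most of the α subunit genes examined lie close to others of the family. On chromosome 2, Scn3a, Scn2a, Scn1a, Scn9a and Scn7a stand in this order over 1328 kb, and the peak at Scn2a was the only 1 in that stretch. The nearest peaks outside it were 2271 kb below and 3775 kb above. Csrnp3, Galnt3 and Ttc21b, the other protein-coding genes of the stretch, had no peak in reach. On chromosome 9, Scn10a and Scn11a stand side by side over 217 kb, and both peaks there lay inside Scn10a. The nearest peaks outside were 219 kb below and 1966 kb above. Scn2a and Scn10a were the only sodium channel genes of these groups with a peak in reach. The spans lie too far apart for a peak to be in reach of 2 sodium channel genes. Of all protein-coding genes 7.49% had a peak in reach, so neighbours without one were the common case.

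**Figure D3:**
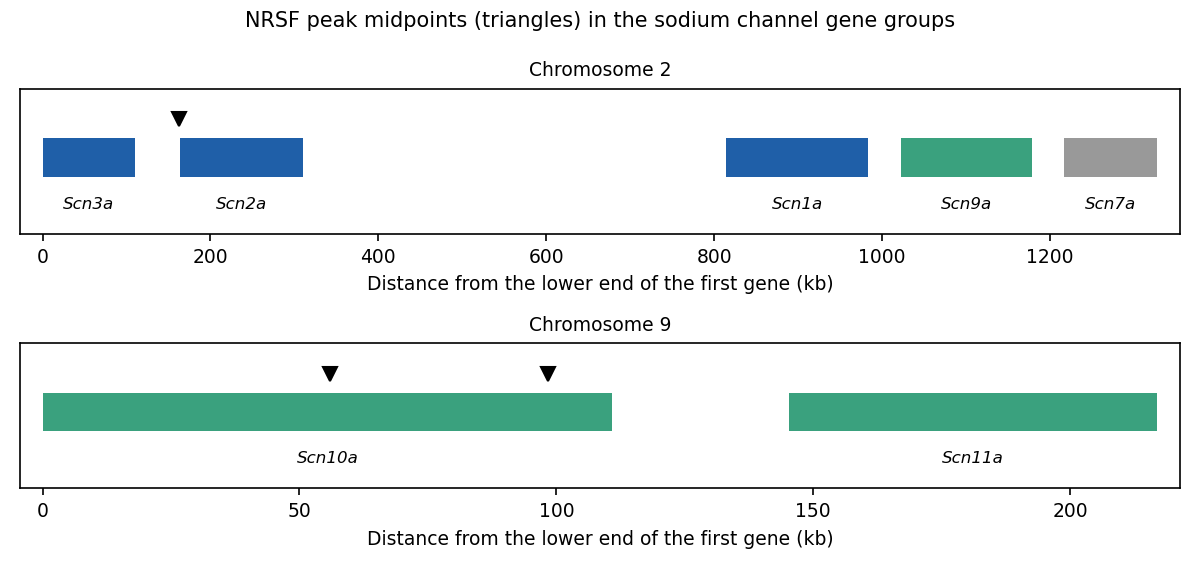
Sodium channel genes (bars, coloured by class as in the map of the 9 genes, grey for genes outside the list of 9) and NRSF peak midpoints (triangles) in the groups on chromosomes 2 and 9, in kb from the lower end of the first gene. The 1328 kb group holds 1 triangle, just below Scn2a, and the 217 kb group holds 2, both inside Scn10a.

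Genes of proteins that anchor or modify sodium channels were counted next, together with the 3 genes of the sodium leak channel complex. Of these 12 genes 6 had a peak (50%), against 7.49% of all protein-coding genes, and each of the 6 had it inside the gene: Sptbn4, Nfasc, Nrcam, Fgf12, Fgf14 and Unc79. Without the leak channel complex, 5 of 9 had one. These genes are long, with a median span of 284 kb and 9 of the 12 over 200 kb, and of all 990 protein-coding genes over 200 kb 24.9% had a peak. Sptbn4 encodes βIV-spectrin, which ties the channel clusters of initial segments and nodes to the membrane skeleton, and its peak lay 39.9 kb from the closer end. Nfasc and Nrcam encode adhesion molecules of the same sites, and their peaks lay 7823 bp and 96.5 kb from an end. Fgf12 and Fgf14 encode intracellular FGF homologues that bind the tail of the α subunit, with peaks 189 and 221 kb from an end. Far from an end did not mean far from a start site in these 2 genes or in Sptbn4. The Sptbn4 peak midpoint, at 27396290, lay close to an annotated start site at 27396198. The Fgf12 peak midpoint, at 28564150, lay close to annotated start sites inside the gene at 28564495 and 28564951. In Fgf14 the midpoint was at 124195540 and the annotated start site at 124192546. Unc79, a subunit of the sodium leak channel complex, had its peak 632 bp from an end, whereas Nalcn, the pore of that complex, and Unc80 had none in reach. Ank3, the gene of the initial segment organiser ankyrin-G, had its closest peak 513 kb away. Fgf11, Fgf13 and Cntn1 were also without one.

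The deposited lists hold no bases and no genome was used here, so the bases under the peaks of the sodium channel genes could not be read. RefSeq promoter windows (GRCm38.p6, 250 bases before to 50 after a start site) were available for 7 of the 9 genes, in 9 windows, none of which a peak met. They were searched on both strands for both parts of the NRSF element, TTCAGCACC on the left and GGACAGCGC on the right, 2 bases apart, with at most 4 mismatches over the 18 letters. None of the 9 windows held it, compared with 0.481% of the 32851 windows of all genes. Among the 32706 windows met by no peak, as these 9 were, the share was 0.422%. At such shares 9 windows without the element are the usual outcome. Of the 145 windows met by a mouse peak, 20 held it (13.8%). In those 20 windows the centre of the element lay at most 23.5 bp from the peak midpoint, with a median of 6 bp. The best match in a window of a sodium channel gene had 6 to 8 mismatches, so the letters are not in these windows, which says nothing of the bases under the peaks.

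The 250 bases before the start site are given for the windows closest to a peak, Scn2a and Scn8a, and for the muscle gene Scn4a as the contrast. Each is written 5′ to 3′ on the strand of the gene, in lower case since no element was found. The Scn2a bases (chr2:65620519-65620768, plus strand) begin 344 bp above the upper edge of the peak, and those of Scn8a (chr15:100870395-100870644, plus strand) lie below the peak. The Scn4a bases (chr11:106349391-106349640, minus strand) have no peak near them. In Sptbn4 (chr7:27396199-27396448, minus strand) the window lies inside the peak at chr7:27396090-27396490, and the capitals mark the element found there.
Scn2a: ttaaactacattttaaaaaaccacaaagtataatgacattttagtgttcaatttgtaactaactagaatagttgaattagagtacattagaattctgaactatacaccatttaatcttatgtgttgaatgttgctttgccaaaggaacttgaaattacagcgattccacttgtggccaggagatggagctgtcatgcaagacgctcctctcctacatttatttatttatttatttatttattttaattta
Scn8a: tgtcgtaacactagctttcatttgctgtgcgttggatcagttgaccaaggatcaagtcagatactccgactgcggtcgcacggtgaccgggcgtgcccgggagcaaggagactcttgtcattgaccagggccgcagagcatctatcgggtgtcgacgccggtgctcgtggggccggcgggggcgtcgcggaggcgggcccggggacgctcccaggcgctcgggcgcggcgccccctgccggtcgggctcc
Scn4a: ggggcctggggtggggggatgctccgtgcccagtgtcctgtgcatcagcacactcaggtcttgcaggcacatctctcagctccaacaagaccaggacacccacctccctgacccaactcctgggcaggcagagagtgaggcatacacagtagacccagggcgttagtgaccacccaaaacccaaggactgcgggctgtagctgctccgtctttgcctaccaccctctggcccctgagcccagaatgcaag
Sptbn4: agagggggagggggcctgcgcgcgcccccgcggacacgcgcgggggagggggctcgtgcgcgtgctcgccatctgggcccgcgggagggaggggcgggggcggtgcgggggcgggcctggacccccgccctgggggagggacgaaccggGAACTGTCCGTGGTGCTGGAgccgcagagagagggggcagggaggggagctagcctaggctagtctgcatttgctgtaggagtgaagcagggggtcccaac

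The 3 channel sequences differ in make-up. G and C made up 29.6% of the Scn2a bases, 68.0% of the Scn8a bases and 61.6% of the Scn4a bases, with a median of 52.4% over the windows of all genes. The second windows of Scn2a and Scn8a, not printed, had 53.2% each. In Sptbn4, one of 4 annotated windows of that gene held the element, at 27396280 to 27396299, with its centre 0.500 bp from the peak midpoint. It is read on the strand opposite to the gene, as TCCAGCACCACGGACAGTTC. Counted from 1 at the 5′ end of the element, it departs from the searched letters at 3 positions, written T2C, C18T and G19T with the searched letter first. The left part thus had 1 mismatch and the right part 2.

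Calcium channel pore genes, which code for proteins of the same channel superfamily, were set beside the sodium channels. A peak stood at 4 of the 9 sodium channel genes and at 6 of the 10 calcium channel pore genes (60.0%), compared with 7.49% of all protein-coding genes and 8.70% of those of 20 to 200 kb. Cacna1a, Cacna1c, Cacna1d and Cacna1e are longer than that class, with spans of 302 to 610 kb. Of protein-coding genes over 200 kb, 24.9% had a peak. When each peak was given to the gene with the closest end, the order turned, with 4 of the 9 sodium channel genes (44.4%) and 3 of the 10 calcium channel genes (30.0%). By that rule 8.49% of all protein-coding genes had a peak, and 10.1% of those of 20 to 200 kb. Cacna1a, the P/Q-type channel of presynaptic terminals, had 3 peaks, Cacna1i, a T-type channel, had 2, and Cacna1b, Cacna1d, Cacna1f and Cacna1h had 1 each. Cacna1b, the N-type channel, had its peak 1085 bp inside an end. Within 1 kb of an end, 2 of the 9 sodium channel genes and none of the 10 calcium channel genes had a peak midpoint. At that setting the share was 1.58% of all protein-coding genes and 1.47% of those of 20 to 200 kb. Beside such shares, none of 10 genes is the usual outcome. Cacna1s, the skeletal muscle pore, had its closest peak 418 kb away, and Cacna1c, the main pore of the heart, had its closest 35.9 kb away. Both were without a peak in reach, as Scn4a was, while Cacna1e and Cacna1g, both expressed in neurons, were without one too. For Cacna1c this depended on the reach. Only 12.5% of protein-coding genes had an end at least as close to a peak. With 50 kb around the span Cacna1c was counted, as were 16.2% of all protein-coding genes. The 94 genes whose symbol begins with Kcn, potassium channels and their auxiliary subunits, had a peak in 19 cases (20.2%), beside the same 7.49% of all protein-coding genes, closest to an end in Kcnh6, Kcns2 and Kcnt1, at 59, 100 and 264 bp. The differences between these lists were not tested.

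**Figure D4:**
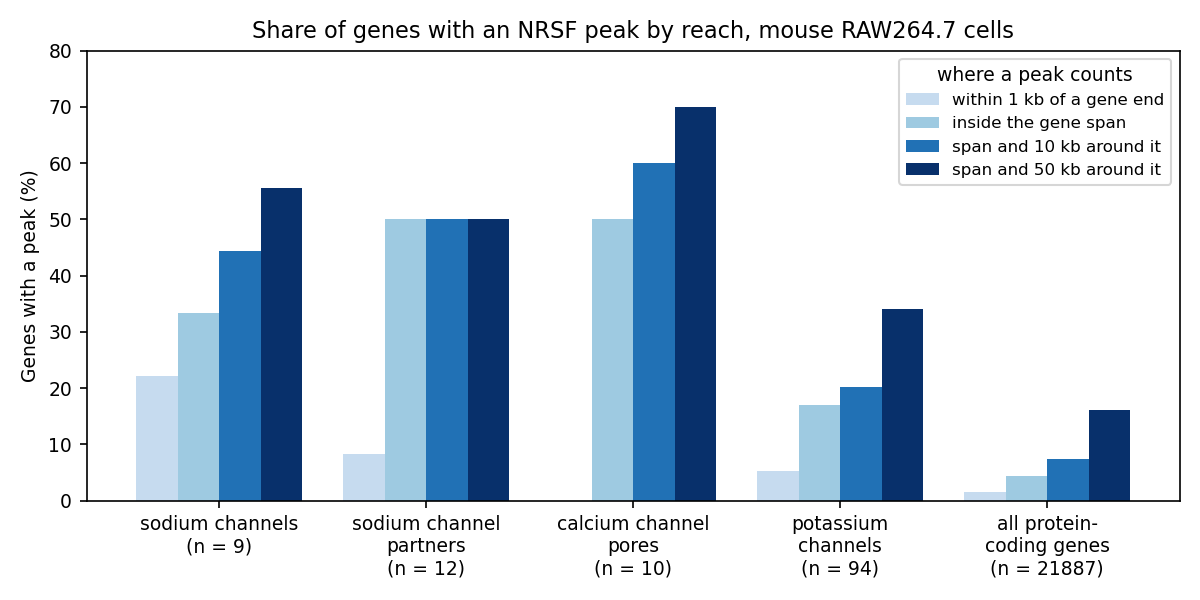
Share of genes with an NRSF peak, in percent, for the 9 sodium channel genes, 12 partner genes, 10 calcium channel pore genes, 94 potassium channel genes and all 21887 protein-coding genes, with bars for 4 definitions of where a peak counts. The sodium channel bars run from 22.2% within 1 kb of an end to 55.6% with 50 kb around the span, against 1.58% and 16.2% of all protein-coding genes.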

How the data were processed

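NRSF was profiled by ChIP-seq in RAW264.7 cells, from cells fixed with 1% formaldehyde, per the labels' protocols. The authors deposited peak positions as chromosome, start and end, with no score, count or other value per peak, each 400 bp wide. The submitters' processing notes name Bowtie 0.12.8, MACS 1.4.2 and mm10, with no role. For the threshold and the joining of replicates the labels give nothing, and the first base of a chromosome may be numbered 0 or 1.

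Gene spans came from RefSeq GRCm38.p6, the assembly that mm10 denotes, as did start sites and promoter windows. All 9 names matched. Midpoints were compared with spans, 10 kb reaches and gene ends, counting only and without tests. Members and lists were chosen with earlier results of these data known, and start site distances were added after the peaks were seen. All members were named, as was each other family, partner or calcium channel gene with a peak. Of the potassium channel genes the 3 closest to an end were named. Other genes without a peak were named afterwards. Counting and search were tested on simulated data. All 1866 overlapping windows of opposite strands read as reverse complements. Protein identities were planned and not analysed here, and some items of the family are not reported here. Python 3.11.15, numpy 2.4.6 and pandas 2.3.3 were used.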

Additional observations from a re-analysis of the deposited data

How the results depend on the processing

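Of 56 alternative values, 40 stayed within 1.5 times the value reported. The 40 include comparisons of 0 with 0, for the 3 further family members and for the element in sodium channel windows. These say little of stability. Counting a peak by any of its bases, shifting positions by 1 base and giving each peak to the closest gene end left the same 4 sodium channel genes. Inside the span only, 3 remained (without Scn2a), within 10 kb of an end 3 (without Scn10a), and with 50 kb around the span 5 (adding Scn11a). Within 1 kb of an end there were 2 sodium channel genes with 2 peaks, 1 partner gene, 0 calcium and 5 potassium channel genes, with 1.58% of all protein-coding genes and 1.47% of those of 20 to 200 kb. Within 10 kb of an end there were 3 peaks at sodium channel genes, 2 partner genes, 4 calcium and 12 potassium channel genes. At that setting 5.63% of all protein-coding genes and 6.11% of those of 20 to 200 kb had a peak. With 50 kb around the span 16.2% of all protein-coding genes and 16.8% of those of 20 to 200 kb had a peak, with 32 potassium channel genes. Inside the span only, 4.44% of protein-coding genes had a peak, and with the closest end 3 calcium channel genes did, beside 8.49% of all protein-coding genes. Chosen after seeing the data, the share among genes over 200 kb was 24.9%, and without the leak channel complex 5 partner genes had a peak. No sodium channel window held the element with at most 5 mismatches (3.56% of all windows), or either part with at most 1 (16.5%). A stricter peak threshold could not be applied, since peaks carry no score, and with 1 list no replicate could be left out. No paired analysis was possible because the 2 replicates share 1 list and the result comes from no test.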

Other observations

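Over all genes, 37 promoter windows held the NRSF element with at most 3 mismatches. A mouse peak met 16 of them, or 11.0% of the 145 windows with a peak, and no peak met the other 21, or 0.0642% of the 32706 windows without one. Of the windows met by a peak, 125 held no element with at most 4 mismatches within the 300 bases searched. A peak of 400 bp can reach beyond the window, and the bases outside it were not analysed here.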
